A study of Mus musculus with 20 samples.

Results

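A set of 53 broadly expressed genes of mouse chromosome 14 was followed in brain progenitor cell lines, and 50 of them had a probe set assigned to that gene symbol alone. The other 3, Bnip3l, Esd and Uchl3, had only probe sets shared with another symbol and were given no value. The genes were listed because chromosome 14 had read low in transformed postnatal progenitors on these arrays, so their postnatal difference is the reason for the choice and is described here without a test, by its size and the separation of the arrays. They were 50 of 18193 genes with a value in the series and 50 of the 354 genes of chromosome 14 whose mean signal exceeded 500.

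The study profiled total RNA from mouse brain cell lines on 20 single-colour Affymetrix arrays, 1 sample an array. Of the 4 groups of 5, the first was postnatal progenitors after transformation and its counterpart was control postnatal progenitors. The other pair was embryonic progenitors after transduction, which the labels class as a genetic modification, and their embryonic controls. The labels name neither the agent that transformed the postnatal cells nor the sequence introduced into the embryonic ones, give no strain, sex or passage, and number the samples without saying that these came from separate cultures. The spread between arrays of a group may therefore be technical.

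Broadly expressed genes serve needs that nearly all cells share, such as transcription, protein folding, transport, the cytoskeleton and energy metabolism. Their promoters are typically rich in the dinucleotide CG and lack a TATA box. Neighbours on a chromosome usually have unrelated functions and promoters of their own, but they share the number of copies that a cell carries of that chromosome. Only RNA was measured here, so the number of gene copies in these lines is not known.

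The promoters of 4 genes show this type, and they are printed because these genes mark the ends and the middle of the range of postnatal differences and the gene whose probe sets disagreed most. Arhgef3 had the lowest transformed-to-control ratio, Parg lay at the middle and Samd4 had the highest ratio. Each sequence is 250 bases before to 50 after a transcription start in RefSeq, on assembly GRCm38.p6 and the plus strand, with every CG in capitals. Where RefSeq gives several starts, the window with the most CG was taken, and for Tsc22d1 the first and the last start are both shown. The windows lie at chr14:27335787-27336086 (Arhgef3), chr14:32201721-32202020 (Parg), chr14:46882715-46883014 (Samd4), chr14:76414711-76415010 (first start of Tsc22d1) and chr14:76504260-76504559 (last start of Tsc22d1).
Arhgef3: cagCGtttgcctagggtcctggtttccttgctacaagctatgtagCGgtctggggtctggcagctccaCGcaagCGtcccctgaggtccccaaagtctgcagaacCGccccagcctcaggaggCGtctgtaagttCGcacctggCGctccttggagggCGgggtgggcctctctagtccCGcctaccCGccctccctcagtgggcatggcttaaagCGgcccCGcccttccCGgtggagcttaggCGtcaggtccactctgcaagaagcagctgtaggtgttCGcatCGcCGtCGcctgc
Parg: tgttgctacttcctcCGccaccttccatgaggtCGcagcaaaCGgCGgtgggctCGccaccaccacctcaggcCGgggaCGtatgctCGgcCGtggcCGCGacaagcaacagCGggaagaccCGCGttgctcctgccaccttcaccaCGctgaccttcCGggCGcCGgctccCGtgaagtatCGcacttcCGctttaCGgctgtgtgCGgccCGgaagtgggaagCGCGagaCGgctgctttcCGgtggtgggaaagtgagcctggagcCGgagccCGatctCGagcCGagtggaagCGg
Samd4: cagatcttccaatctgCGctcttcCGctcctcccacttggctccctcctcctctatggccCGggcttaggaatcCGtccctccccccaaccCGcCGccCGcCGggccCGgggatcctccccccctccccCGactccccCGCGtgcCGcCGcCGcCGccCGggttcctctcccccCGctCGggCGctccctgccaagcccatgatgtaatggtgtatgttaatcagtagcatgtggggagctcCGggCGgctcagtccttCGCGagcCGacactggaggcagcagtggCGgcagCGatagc
Tsc22d1, first start: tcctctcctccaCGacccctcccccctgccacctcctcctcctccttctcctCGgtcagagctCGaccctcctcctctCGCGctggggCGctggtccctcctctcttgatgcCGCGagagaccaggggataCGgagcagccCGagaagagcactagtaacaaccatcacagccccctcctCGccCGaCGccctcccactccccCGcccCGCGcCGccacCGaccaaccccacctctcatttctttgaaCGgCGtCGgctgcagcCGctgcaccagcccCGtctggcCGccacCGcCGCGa
Tsc22d1, last start: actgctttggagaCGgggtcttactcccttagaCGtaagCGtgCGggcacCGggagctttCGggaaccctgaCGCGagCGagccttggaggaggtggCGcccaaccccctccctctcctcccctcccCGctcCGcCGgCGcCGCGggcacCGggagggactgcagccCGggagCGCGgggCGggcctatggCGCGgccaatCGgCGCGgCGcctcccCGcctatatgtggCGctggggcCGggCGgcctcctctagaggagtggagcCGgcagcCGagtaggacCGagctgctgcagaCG

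These windows held 19 CG in Arhgef3, 33 in Parg, 27 in Samd4, and 27 and 35 at the first and last start of Tsc22d1. So the gene with the lowest ratio, the middle gene and the gene with the highest ratio all had CG-rich promoters. A window was found for 41 of the 50 genes, with a median of 25 CG, and 97.6% of them held at least 10 CG, against 69.8% of all genes tested. The letters GGGCGG, on either strand, stood in 34 of the 41 windows (82.9%), against 56.1% of all genes tested. TATAAA, on either strand, stood in 1 of 41 (2.44%), against 9.36%. All genes tested include dim genes, which the list does not. A closer set was the other chromosome 14 genes with a mean signal over 500, of which 235 had a window. In these the 3 shares were 91.1%, 64.3% and 6.38%, with a median of 23 CG. On each share the list lay closer to this set than to all genes tested. No window was listed for Bin3, Camk2g, Clu, Ctsb, Farp1, Gnpnat1, Msra, Ppp2r2a and Slc25a37.

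All 7 progenitor markers checked (Olig2, Sox2, Nes, Olig1, Pdgfra, Cspg4 and Fabp7) lay above background on every array, and of 5 neuronal markers 4 did so on all transformed and 5 on all postnatal control arrays, and in embryonic cells 2 on all transduced and 5 on all control arrays. Of 5 microglial and leukocyte markers Csf1r lay above background on every array, while Aif1 and Itgam did so on none. Of 5 endothelial markers Pecam1 did so on none, and Kdr on all 5 transformed and on 3 of 5 postnatal control arrays. No fibroblast marker of 5 did so on all arrays of either postnatal group. Among embryonic arrays, 3 (Col1a1, Col1a2 and Col3a1) did so on all control and 2 (Col1a2 and Col3a1) on all transduced arrays. The summed progenitor signal lay between 322400 and 337928 on transformed arrays and between 368738 and 436467 on postnatal control arrays. In embryonic cells it lay between 179553 and 195600 after transduction, against 355134 to 411289 in control. The sum is weighted to its brightest genes, Fabp7 and Olig1. Nes went against it in postnatal cells, at least 2-fold higher after transformation (log2 change 1.42, no overlap), and no progenitor marker was called at least 2-fold lower there. Genes of cycling cells, 9 of 10 listed, had a mean log2 signal of 11.27 to 11.54 on transformed arrays, whereas postnatal control arrays 1 to 3 read 14.08 to 14.11 and control arrays 4 and 5 read 11.29 and 11.13. The control group was therefore not uniform. Values are also given without arrays 4 and 5 where these moved a listed gene most or where it was under 2-fold without them. The log2 ratio of 3' to 5' Gapdh probe sets, a sign of RNA integrity, averaged -0.55 on transformed and -0.46 on postnatal control arrays. For Actb it averaged 0.28 and 0.25, a difference in the other direction. The part of cell cycle and RNA integrity in the values below was not tested. Leaving out control arrays 4 and 5 does not test it, since these were the control arrays nearest the transformed ones in cycling genes. In bulk RNA fewer cells of a type and less RNA per cell cannot be told apart.

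Most of the chromosome 14 genes read lower in transformed postnatal progenitors, by factors that differed between genes. Their median log2 change, transformed over postnatal control, was -0.96, or 51.4% of the control level, with quartiles of -1.26 and -0.62 and a range of -2.01 to 0.86. Of the 50 genes, 41 lay below 0. By size alone 24 were at least 2-fold lower, where 7.58% of all genes were, and none was at least 2-fold higher, against 11.2% of all genes. Since the list was chosen from this contrast, these counts describe the choice. The median standard error of a gene's log2 change was 0.095 (n = 5 arrays a group), far below the SD of 0.66 between the 50 genes.

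The spread around the median can be set beside that of other genes. The interquartile range was 0.64 for the 50 genes, against 0.84 for 304 other chromosome 14 genes and 0.84 for 10098 genes of the other 18 autosomes, all with a mean signal over 500. Within 0.5 of their own median lay 64% of the 50 genes, 57.9% of the other chromosome 14 genes and 56.9% of those on other autosomes. The median change of the other chromosome 14 genes was -0.83 and that of the other autosomes -0.03, where single autosomes ranged from -0.22 to 0.20. The listed genes were thus close to their chromosome as a whole, and chromosome 14 lay below the range of the other autosomes. Without control arrays 4 and 5 the median of the 50 genes was -0.88 and that of the other chromosome 14 genes -0.79.

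**Figure D1:**
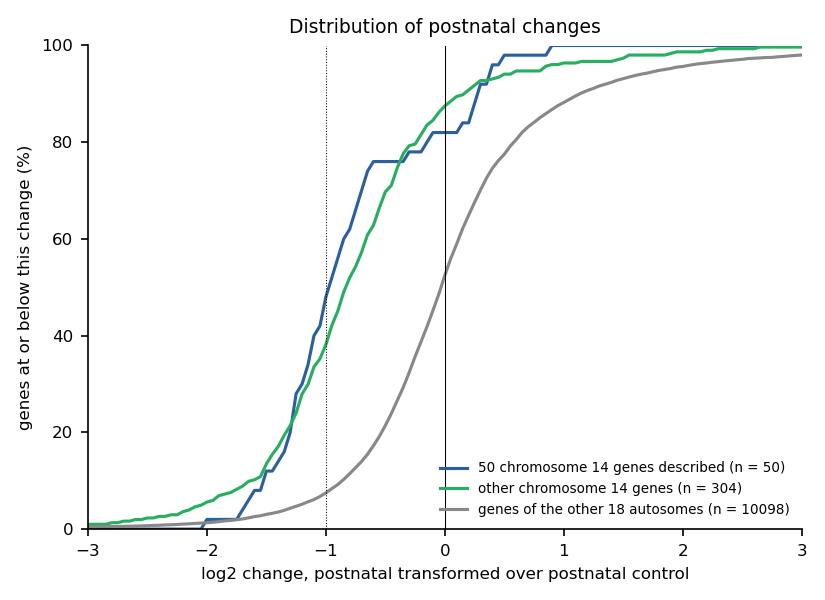
Cumulative share of genes (vertical axis, %) at or below a given log2 change of transformed over postnatal control (horizontal axis), for the 50 chromosome 14 genes, 304 other chromosome 14 genes and 10098 genes of the other autosomes, all with a mean signal over 500. Both chromosome 14 curves lie left of the autosomal curve, with medians of -0.96 and -0.83 against -0.03, and the curve of the 50 genes is almost flat between Psmc6 at -0.60 and Clu at -0.19, where Ctsb alone lies.

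A gene was said to escape where its level in transformed cells stayed above 80% of the control level, which is a log2 change above -0.32. This held for 11 of the 50 genes (22.0%), close to 65 of the 304 other chromosome 14 genes (21.4%) and far from the 69.0% of genes on other autosomes. The 39 genes that did not escape had a median of -1.11 with an SD of 0.35, about 46.5% of control, and the 11 that escaped a median of 0.25. The limit itself sets these 2 groups apart, and the 39 genes still ran from -2.01 to -0.34. The promoter windows of 8 escaping genes held a median of 25.5 CG and those of 33 others 25. At a limit of 1.1-fold 10 genes escaped and at 1.5-fold 12, as Clu was lost at the first limit and Ctsb gained at the second.

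Each transformed array showed the same shift. Relative to the mean of the postnatal control arrays, the median of the 50 genes was -0.97, -0.98, -0.97, -0.998 and -0.91 on transformed arrays 1 to 5, against -0.03 to 0.04 on the control arrays themselves. On each of the transformed arrays 41 of the 50 genes lay below the control mean. In embryonic cells the medians were 0.003 to 0.15 on transduced arrays, relative to the embryonic controls, and -0.02 to 0.02 on the control arrays.

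**Figure D2:**
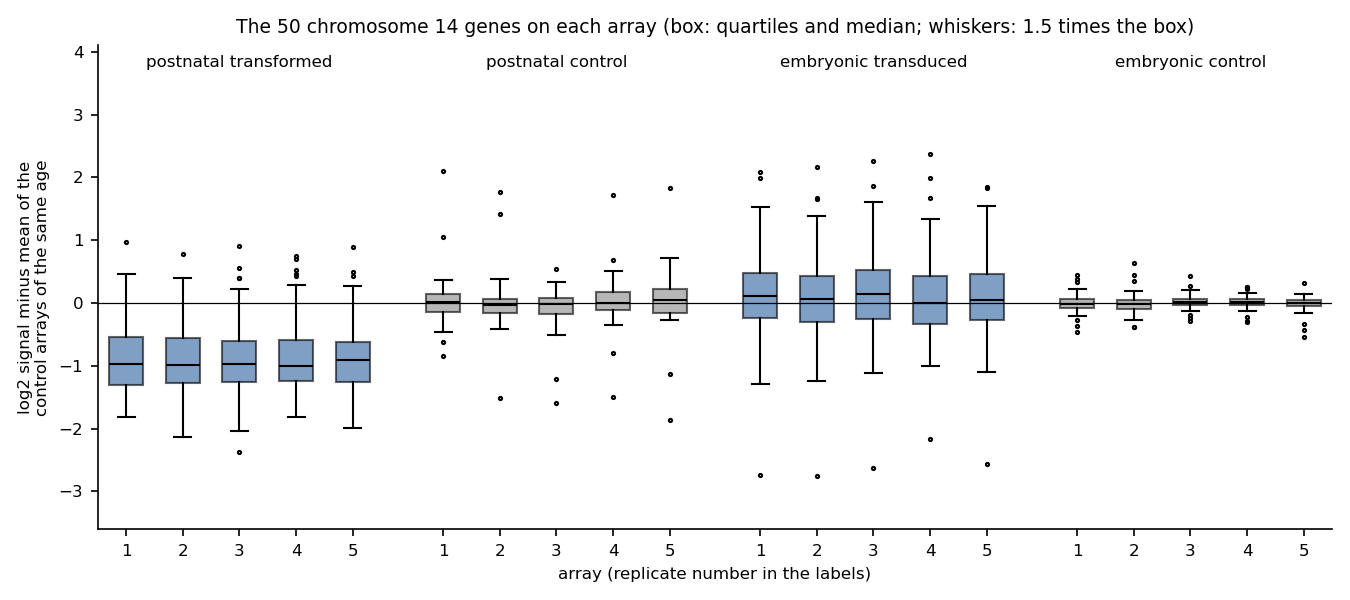
Box plots of the 50 chromosome 14 genes on each of the 20 arrays, as log2 signal minus the mean of the control arrays of the same age, with boxes for quartiles and median and points for genes beyond 1.5 box lengths. The 5 transformed postnatal arrays have medians between -0.998 and -0.91, whereas the medians of the other 15 arrays lie between -0.03 and 0.15.

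The difference was of similar size in dim and bright genes. The 17 dimmest genes had a median change of -1.03, the 16 of middle brightness -1.04 and the 17 brightest -0.82, and across the 50 genes mean log2 signal and change had a Pearson r of 0.07 (Spearman 0.12, genes measured on the same arrays). Along the chromosome, 354 genes with a mean signal over 500 were divided into 10 consecutive blocks of 35 or 36. Block medians lay between -1.14 and -0.70, all below 0, so that the lower level extended over the whole length measured. The last block, with 11 of the listed genes, had an upper quartile of 0.14, the highest of the 10.

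**Figure D3:**
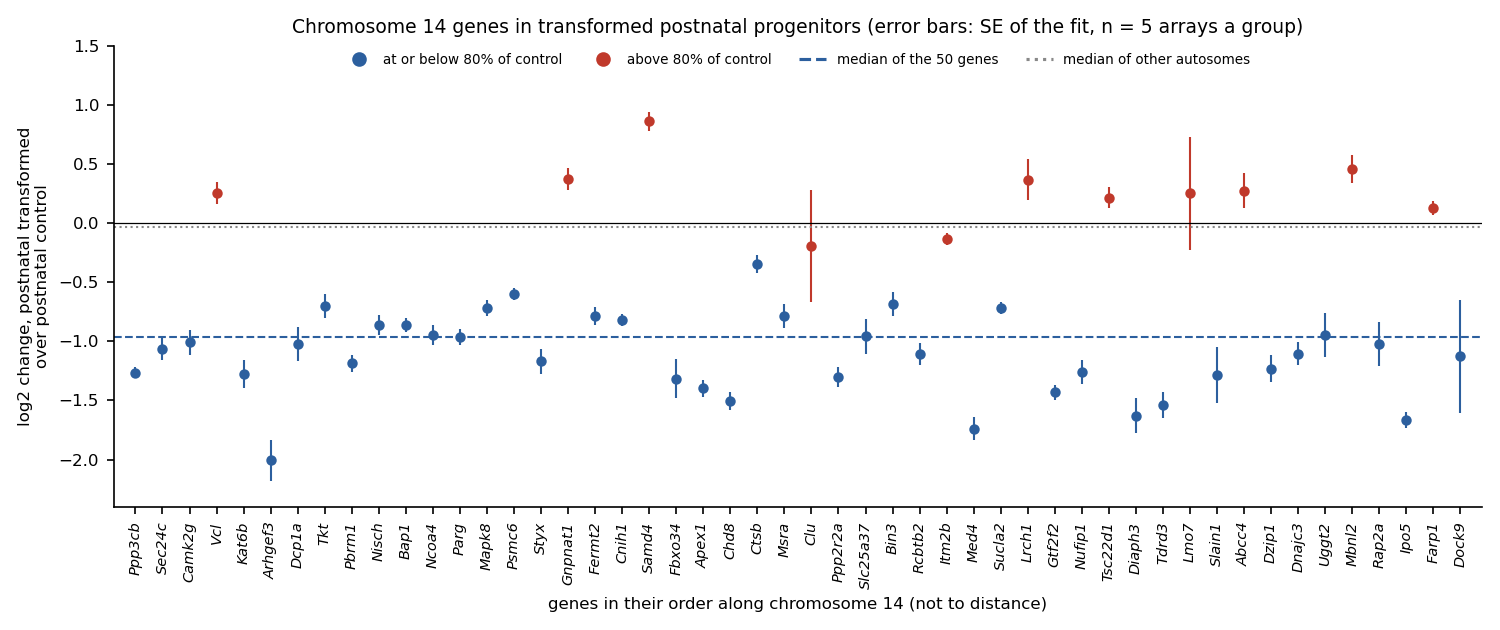
Log2 change of transformed over postnatal control for the 50 genes in their order along chromosome 14 (horizontal axis, not to distance), with error bars for the standard error of the fit (n = 5 arrays a group). Red points mark the 11 genes above 80% of the control level. They lie among blue points around the median of -0.96, more often in the later part of the order.

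The genes of chromatin, transcription and genome maintenance had the lowest median of the larger role groups, -1.34 over 10 genes, of which 7 were at least 2-fold lower and 1, Tsc22d1, was not lower. Med4, a subunit of the Mediator complex that links transcription factors to RNA polymerase, had signals of 2465, 2194, 1715, 2322 and 1967 on transformed arrays, against 7338, 7310, 8903, 5935 and 6325 on postnatal control arrays. All transformed arrays lay below all control arrays, and its log2 change of -1.74 ± 0.10 (SE) left 30.0% of the control level. Tdrd3, a reader of methylated arginine on chromatin (-1.54), the chromatin remodeller Chd8 (-1.51), Gtf2f2, the smaller subunit of the general transcription factor TFIIF (-1.43), and the DNA repair nuclease Apex1 (-1.40) stood close behind. The histone acetyltransferase Kat6b was at -1.28, Pbrm1, a subunit of a SWI/SNF remodelling complex, at -1.18 and the deubiquitinase Bap1, a tumour suppressor, at -0.86. Parg, which removes poly(ADP-ribose) chains after DNA damage, lay at the middle of the list. It had signals of 3142, 2937, 2969, 3333 and 3235 on transformed arrays, against 5511, 5787, 6028, 6673 and 6578 on control arrays, with no overlap and a log2 change of -0.96 ± 0.07.

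Genes of the cytoskeleton, adhesion and small GTPase control had a median of -1.02 over 13 genes, with 7 at least 2-fold lower and 4 that escaped. Arhgef3, a guanine nucleotide exchange factor, had the lowest ratio of the list. Its signals were 425, 332, 279, 441 and 366 on transformed arrays, against 1721, 1530, 1634, 1455 and 1256 on control arrays, a log2 change of -2.01 ± 0.17. Every transformed array read under every control array. Diaph3, a formin that nucleates actin filaments, had 583, 721, 574, 492.97 and 470 in transformed cells, against 1953, 2324, 1730, 1385 and 1609 in control cells (-1.63 ± 0.15). The microtubule tip protein Slain1 (-1.29), the ciliary protein Dzip1 (-1.23) and Rcbtb2, which carries a BTB domain (-1.11), were also at least 2-fold lower. Fermt2, a kindlin that activates integrins (-0.79), and the membrane-bending protein Bin3 (-0.68) were lower by less.

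In this group 2 genes rested on the uneven controls. Dock9, another exchange factor, had 1866, 1172, 1292, 1540 and 2259 on transformed arrays, against 1925, 1209, 1497, 11511 and 12396 on control arrays. Transformed cells overlapped control arrays 1 to 3, and only control arrays 4 and 5 were high. Its log2 change was -1.13 ± 0.48, and 0.06 without those arrays. The Ras-like GTPase Rap2a had 4810, 5052, 5135, 4601 and 5279 in transformed cells, against 7295, 7572, 7094, 16178 and 16608 in control cells. Here the groups did not overlap, but the change of -1.02 became -0.56 without control arrays 4 and 5.

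The 6 genes of kinase and phosphatase signalling were all lower, with a median of -1.09, and none escaped. Ppp2r2a, a regulatory subunit of a major serine/threonine phosphatase, was at -1.30, the calcineurin subunit Ppp3cb at -1.26, the catalytically inactive phosphatase Styx at -1.17 and the calcium-dependent kinase Camk2g at -1.01. Without control arrays 4 and 5 Styx was at -0.98 and Camk2g at -0.94, both under 2-fold. Nisch, an integrin-binding protein, was at -0.86 and the stress kinase Mapk8 (JNK) at -0.72.

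Genes of the secretory pathway, lysosome and transport had a median of -0.82 over 9 genes, with 3 at least 2-fold lower and 3 that escaped. Ipo5, a receptor that carries cargo into the nucleus, had 6741, 6704, 7310, 7496 and 6826 on transformed arrays, against 24280, 24747, 23831, 19661 and 19442 on control arrays. The transformed level was 31.5% of control and the arrays of a group varied little (-1.67 ± 0.07). The endoplasmic reticulum co-chaperone Dnajc3 (-1.11) and Sec24c, a coat protein of vesicles leaving that compartment (-1.07), were also lower, as was the cargo receptor Cnih1 (-0.82). Without control arrays 4 and 5 Dnajc3 was at -0.94 and Sec24c at -0.96, both under 2-fold. Uggt2, which tags misfolded glycoproteins for another round of folding, had 662, 762, 672, 621 and 763 in transformed cells, against 879, 1284, 1499, 1559 and 1718 in control cells. Its groups did not overlap, although the lowest control array came near the transformed ones (-0.95 ± 0.18). The lysosomal protease Ctsb, at -0.34, lay just outside the limit for escape, and the nearest gene inside it was Clu at -0.19.

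Metabolic genes had a median of -0.75 over the 6 measured of 8 listed. None of the 6 was at least 2-fold lower and 1, Gnpnat1, escaped at 0.37. Slc25a37, which imports iron into mitochondria, had 805, 932, 1071, 1307 and 1110 on transformed arrays, against 1935, 2284, 1693, 1907 and 2357 on control arrays (-0.96 ± 0.15). Ncoa4, the receptor that delivers ferritin to lysosomes, had 11347, 12059, 12037, 13022 and 12483 in transformed cells, against 21541, 19983, 22333, 28657 and 26091 in control cells (-0.95 ± 0.09). Neither gene had overlapping groups, and both lay close to the median of the list. Msra, which repairs oxidised methionine (-0.78), Sucla2 of the citric acid cycle (-0.72) and Tkt of the pentose phosphate pathway (-0.70) followed.

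Among genes of RNA binding and decay, 2 were at least 2-fold lower, the snoRNP assembly factor Nufip1 (-1.26) and the decapping activator Dcp1a (-1.03), while the other 2, Mbnl2 and Samd4, were not lower. Without control arrays 4 and 5 Dcp1a was at -0.999, just under 2-fold. Of the 2 measured genes of ubiquitin and the proteasome, the F-box protein Fbxo34 was at -1.32 and the proteasome ATPase Psmc6 at -0.60.

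Samd4, a translational repressor of the Smaug family, was the highest of the list. It had 6605, 5789, 6280, 5618 and 6193 on transformed arrays, against 3293, 4033, 3672, 3056 and 2822 on control arrays, a log2 change of 0.86 ± 0.08. All transformed arrays lay above all control arrays. The splicing regulator Mbnl2 had 14418, 14223, 15803, 14868 and 14480 in transformed cells, against 9022, 8320, 9345, 15295 and 13352 in control cells (0.46 ± 0.12). Control array 4 lay within the transformed range, array 5 just under it and the other 3 far below, and the change was 0.73 without arrays 4 and 5. Gnpnat1, an enzyme of UDP-GlcNAc synthesis, had 4472, 4207, 4291, 4352 and 3700 in transformed cells, against 2662, 3136, 3237, 3787 and 3482 in control cells (0.37 ± 0.09). For Gnpnat1, 1 control array exceeded the lowest transformed array. Lrch1, a protein with leucine-rich repeats, had 1231, 1224, 1230, 1720 and 1504 in transformed cells, against 957, 1055, 1050, 1205 and 1038 in control cells (0.37 ± 0.17). Its groups did not overlap, but the highest control array lay just under the lowest transformed array.

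The transporter Abcc4, which exports cyclic nucleotides and drugs, had 5217, 5043, 4355, 4916 and 4852 on transformed arrays, against 5072, 4505, 2969, 3674 and 4226 on control arrays (0.27 ± 0.15). Vinculin (Vcl), which ties adhesion sites to actin, had 4012, 4467, 4738, 4075 and 4191 in transformed cells, against 4663, 3965, 3208, 3172 and 3195 in control cells (0.25 ± 0.09). Both overlapped with control. Tsc22d1, a leucine zipper regulator induced by TGF-beta and among the brightest genes of the list, had 86086, 81912, 81646, 80024 and 77510 in transformed cells, against 65342, 54051, 70905, 79964 and 84534 in control cells (0.22 ± 0.09). Farp1, an exchange factor with a FERM domain, had 7339, 6873, 7452, 6998 and 6907 in transformed cells, against 6910, 6260, 6976, 5868 and 6595 in control cells (0.13 ± 0.06). These too overlapped with control. The escape of Tsc22d1 rests on the probe set that represents it, as its bright probe sets ranged from -3.34 to 0.32. Itm2b, a membrane protein processed in the secretory pathway, had 46512, 44834, 45546, 42707 and 41344 in transformed cells, against 51669, 46998, 48004, 46525 and 49440 in control cells. Its arrays were separated, with the highest transformed array just under the lowest control array, yet the change was only -0.14 ± 0.05.

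Like Tsc22d1, the other 2 escaping genes cannot be placed firmly, here because their control arrays disagreed. Clusterin (Clu), a secreted chaperone, had 3412, 3925, 3670, 3276 and 4186 on transformed arrays, against 18029, 11283, 1389, 2429 and 1910 on control arrays. Control arrays 1 and 2 lay far above the transformed arrays and the other 3 below them. The log2 change was -0.19 ± 0.47, and it ranged from -0.59 to 0.33 when 1 array was left out, with positive values without control array 1 (0.33) or 2 (0.16). Without control arrays 4 and 5 it was -0.84, a level at which Clu no longer escaped. The adhesion protein Lmo7 had 403, 334, 304, 426 and 296 in transformed cells, against 620, 1029, 432, 92.5 and 68.3 in control cells, where arrays 4 and 5 were below background. Its mean signals were 353 ± 58.8 in transformed and 448 ± 399 in control cells (SD, n = 5). Its log2 change nevertheless had the opposite sign, 0.25 ± 0.48 (SE), since low arrays weigh more on the log2 scale. Without control arrays 4 and 5 the log2 change of Lmo7 was -0.87. Lmo7 was the exception to a statement true of the other 49 genes, which lay above background on all 20 arrays. Leaving out those arrays put 11 genes above the limit again, of which 9 were the same.

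**Figure D4:**
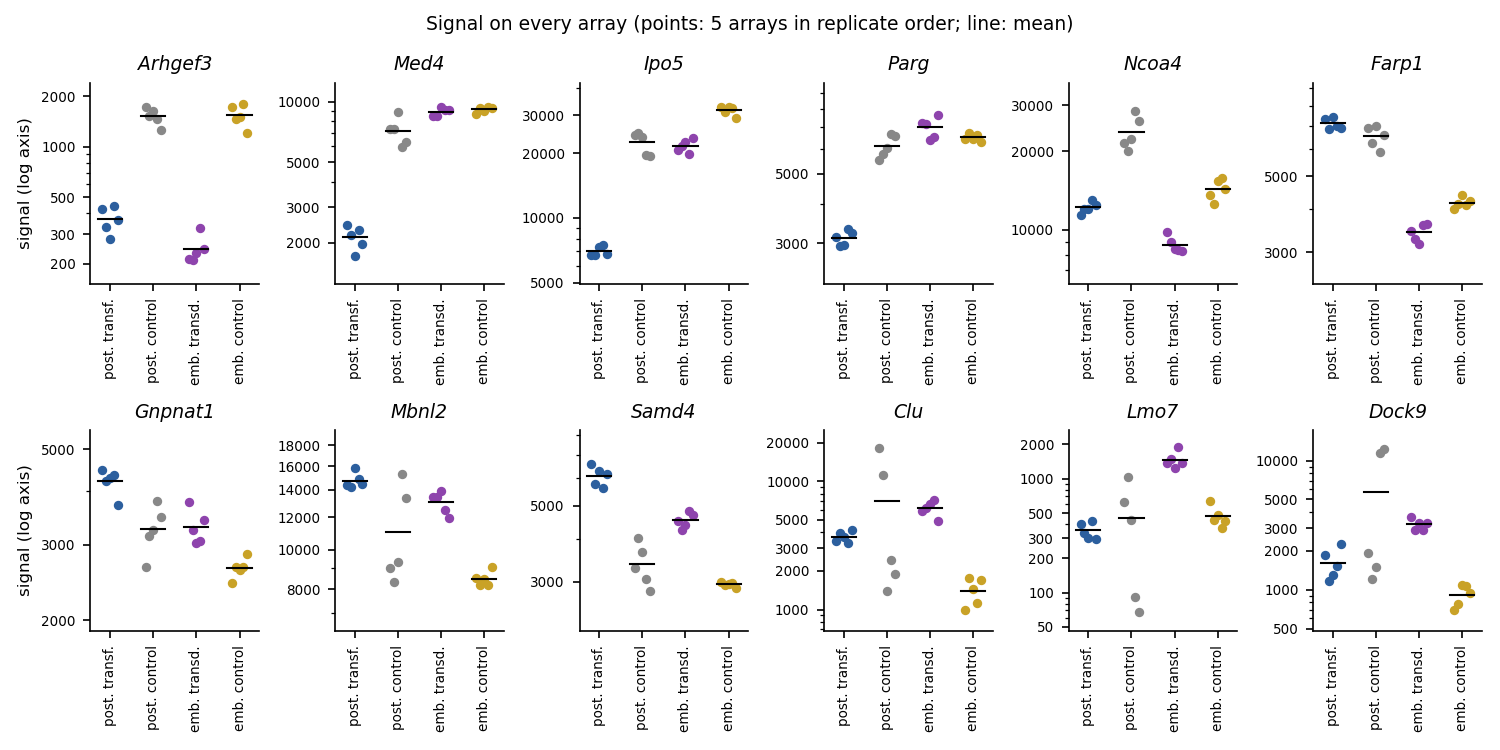
Signal on each array (log axis) for 12 genes in the 4 groups, with 5 points in replicate order and a line for the mean. Arhgef3, Med4 and Ipo5 are separated from postnatal control by more than the spread of the arrays, Parg and Ncoa4 lie near the median difference, and Clu, Lmo7 and Dock9 show the split among control arrays.

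The escaping genes lay among lower ones, more of them in the later part of the chromosome order of the list. Each of the 11 had, in chromosome order, a gene that did not escape on either side of it in the list. Farp1 (0.13) lay between Ipo5 (-1.67) and Dock9 (-1.13, or 0.06 without control arrays 4 and 5, where Dock9 escaped too), Gnpnat1 (0.37) between Styx (-1.17) and Fermt2 (-0.79), and Itm2b (-0.14) between Rcbtb2 (-1.11) and Med4 (-1.74). Samd4 (0.86) lay between Cnih1 (-0.82) and Fbxo34 (-1.32), and Vcl (0.25) between Camk2g (-1.01) and Kat6b (-1.28). Of the 11 genes, 8 had transformed and control arrays that overlapped, 2 (Samd4 and Lrch1) had every transformed array above every control array, and 1 (Itm2b) had every transformed array below. In contrast, 39 of the 50 listed genes had groups without overlap and lower in transformed cells, where 15.9% of all genes did, and 2 had groups without overlap and higher, against 16.4%. Dock9 was the single gene that did not escape and yet overlapped.

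Probe sets of a gene allow the difference to be read more than once. The 50 genes had 144 single-symbol probe sets, and 38 genes had more than 1. Over probe sets of any brightness, the range of log2 changes within a gene had a median of 0.70, against 0.52 over 9010 genes of the series. Among the 31 genes with at least 2 probe sets of a mean signal over 500 it was 0.40. Over 5255 genes of the series it was 0.27, and over 157 other chromosome 14 genes also 0.27. The 31 genes had more probe sets each (94 in all, against 13982 in the 5255), and a range tends to widen with their number. The same held at any brightness, with 132 in 38 genes against 25762 in 9010. Ranges were thus narrower among bright probe sets, and dim ones also read smaller differences. The 31 further probe sets at or under 500 had a median change of -0.43, whereas the 113 probe sets over 500 had a median of -0.95, and 93 of these lay below 0.

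Bright probe sets of a gene mostly shared their direction. Of the 31 genes, 25 had all bright probe sets below 0, 5 had all above 0 and 1, Tsc22d1, had both signs, against 1040 of 5255 genes of the series. Because the list was chosen as low in this contrast, a shared direction follows in part from the choice. Of 157 other chromosome 14 genes, 6 had both signs. Over probe sets of any brightness 11 of 38 had both signs, against 3419 of 9010. In 19 of the 31 the bright probe sets agreed within 0.5, a smaller share than the 3860 of the 5255. Of the 157 other chromosome 14 genes, 116 did so. The 31 genes had more probe sets each than either set, which by itself makes such agreement rarer. Agreement was closest for Bap1 (-0.86 and -0.87), Camk2g (-1.01 and -1.03) and Vcl (0.25 and 0.22). Of the 11 escaping genes, Tsc22d1 had bright probe sets from -3.34 to 0.32, described further on, whereas Samd4 ranged from 0.57 to 0.97, Gnpnat1 from 0.17 to 0.72, Mbnl2 from 0.31 to 0.46 and Clu from -0.21 to -0.03. The representing probe set had a smaller difference, in absolute size, than the median of the others in 11 of the 31 genes and a larger one in 20.

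**Figure D5:**
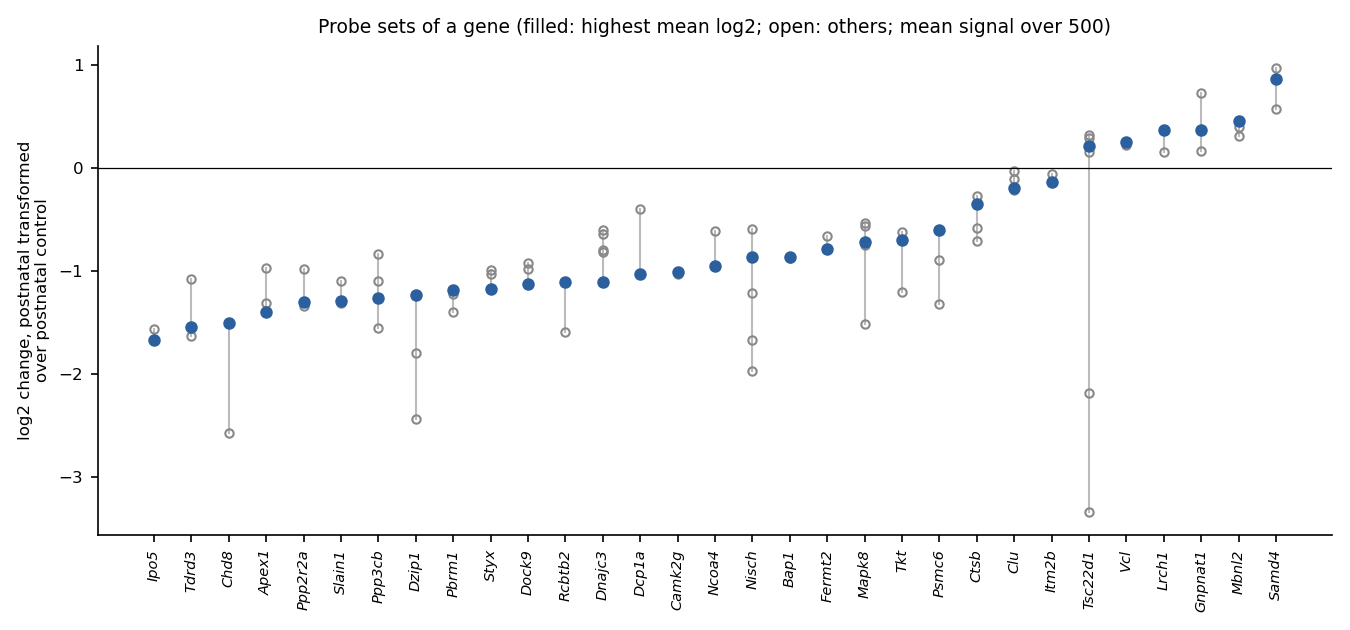
Log2 change of transformed over postnatal control for each probe set with a mean signal over 500, in the 31 genes with at least 2 such probe sets, ordered by the representing probe set (filled). Most genes stay on the same side of 0, whereas Tsc22d1 holds 4 probe sets between 0.15 and 0.32 and the other 2 at -2.18 and -3.34.

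Tsc22d1 held the most divergent probe sets, and they formed 2 groups. Its 4 brightest gave log2 changes of 0.22, 0.29, 0.32 and 0.15 in the postnatal contrast. The fifth had 441, 391, 577, 623 and 459 on transformed arrays, against 2390, 2449, 2282, 2109 and 2224 on control arrays, a change of -2.18 ± 0.12. Its arrays were far apart where those of the brightest probe set overlapped. The sixth was below background on all transformed arrays and averaged 783 ± 186 (SD, n = 5) in control cells, at least 4.76-fold lower. The seventh was dim, with means of 319 and 142 in transformed and control cells, and lay above background on 1 control array. In embryonic cells the groups of probe sets also parted, and in the opposite sense: after transduction the 4 brightest fell by 0.30, 0.37, 0.40 and 0.51 on the log2 scale (adjusted p between 0.0019 and 0.0094 in limma), while the fifth rose by 1.504 ± 0.12 (adjusted p = 8.49e-10) and the sixth by 1.91 ± 0.34 (adjusted p = 8.02e-05). RefSeq lists 5 start windows for Tsc22d1, of which the first and last are printed above. Which of its transcripts each probe set reads is not given in the table used here.

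Rcbtb2 and Dzip1 came next when dim probe sets were counted. The representing probe set of Rcbtb2 had 2686, 2556, 2997, 2895 and 2837 on transformed arrays, against 7092, 6676, 6858, 4759 and 5153 on control arrays. Its second bright probe set was lower by a larger factor (-1.59 against -1.11), a dim one was at 0.01, and another was below background on all transformed arrays and at least 2.69-fold lower. Dzip1 had 1840, 2059, 2292, 1940 and 1961 in transformed cells, against 4213, 4357, 4026, 5320 and 6160 in control cells, and its bright probe sets gave -1.23, -1.79 and -2.43. Among bright probe sets, Nisch (-0.59 to -1.97), Chd8 (-1.51 and -2.57) and Mapk8 (-0.53 to -1.52) also differed by about 1 or more on the log2 scale, all on the lower side.

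In embryonic progenitors, whose arrays had no part in the choice of genes, transduction moved the list in no common direction. The median log2 change, transduced over control, was 0.10, against 0.04 for the other chromosome 14 genes and 0.03 for the other autosomes. At an adjusted p under 0.05 of any size, 19 genes rose and 15 fell. Among all genes with a mean signal over 500 the same rule called 30.5% higher and 28.2% lower, so that 38.0% and 30.0% of the list were near or somewhat above that background. With 2-fold, 7 of the 50 genes (14%) were called, against 14.4% of all genes, and that share is not a result about the list. Of these, 2 fell, where 5.74% of all genes were called lower, and 5 rose, against 8.61%.

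The largest embryonic fall was again in Arhgef3. It had 213, 212, 232, 327 and 245 on transduced arrays, against 1729, 1468, 1492, 1793 and 1206 on embryonic control arrays, so that no arrays overlapped, and fell by 2.57 ± 0.17 (adjusted p = 6.84e-11, limma over all genes). Msra had 1929, 2011, 2199, 2723 and 2224 after transduction, against 4243, 5402, 4854, 4620 and 4730 in control, and fell by 1.11 ± 0.10 (adjusted p = 8.02e-09). Each transduced array lay under each control array for Msra also. Both genes were lower in the modified cells of either age.

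The other 5 genes called in embryonic cells rose. Clu had 5882, 6180, 6633, 7150 and 4927 on transduced arrays, against 987, 1748, 1435, 1119 and 1714 on control arrays, a rise of 2.15 ± 0.47 (adjusted p = 0.00082). Dock9 had 3642, 2880, 3313, 2908 and 3269 after transduction, against 695, 779, 1086, 1073 and 940 in control, and rose by 1.81 ± 0.48 (adjusted p = 0.00408). The embryonic control arrays of both genes were uniform, unlike the postnatal ones. Lmo7 had 1363, 1505, 1237, 1882 and 1369 on transduced arrays, against 635, 431, 485, 371 and 423 on control arrays (1.62 ± 0.48, adjusted p = 0.00903). Slc25a37 had 4031, 3778, 4391, 3668 and 3662 after transduction, against 1468, 1357, 1943, 1491 and 1058 in control (1.43 ± 0.15, adjusted p = 4.46e-08). Abcc4 had 4821, 3316, 4012, 2906 and 4483 on transduced arrays, against 2160, 1361, 1641, 1665 and 1536 on control arrays (1.21 ± 0.15, adjusted p = 6.15e-07). None of these 5 genes had overlapping groups, nor did 34.8% of all genes in either direction, and 3 of them, Clu, Lmo7 and Abcc4, were among the genes that escaped in postnatal cells. The shared model estimates the spread over all 20 arrays, so the errors of Clu, Dock9 and Lmo7 also carry the split of the postnatal controls.

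Smaller embryonic changes that passed the test ran both ways within the role groups. Uggt2 rose by 0.97, Vcl by 0.78, Mbnl2 by 0.62, Samd4 and Nufip1 by 0.61 each, Ctsb by 0.51 and Itm2b by 0.47. Ncoa4 fell by 0.71, Apex1 by 0.70, Sec24c by 0.67, Tdrd3 by 0.58 and Ipo5 by 0.55. Med4 (-0.04), Pbrm1 (-0.02), Mapk8 (-0.02) and Kat6b (-0.06) did not pass. Of the 11 genes that escaped in postnatal cells 8 rose in embryonic cells and 2 fell, and of the 39 others 11 rose and 13 fell. Across the 50 genes, which share their arrays, the embryonic and postnatal changes had a Pearson r of 0.44 (Spearman 0.42), against 0.29 (0.22) over 10098 genes of other autosomes.

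Probe sets also parted in embryonic cells for Nisch, which was singled out after its values were seen. Its representing probe set, the brightest, had a mean of 38217 ± 4281 after transduction, against 31540.2 ± 1121 in control (SD, n = 5), a rise of 0.27 ± 0.08. The other 4 rose by 2.34, 1.86, 2.11 and 0.88 (adjusted p between 1.02e-12 and 0.000493 in limma over all probe sets), the largest with 10748, 15087, 14395, 13487 and 11125 on transduced arrays, against 2376, 2138, 2558, 3086 and 2550 on control arrays. Over the 31 genes with bright probe sets the median range of embryonic changes was 0.32, against 0.28 over the 5255 genes of the series. Both signs occurred in 9 of the 31, against 1309 of the 5255 and 26 of 157 other chromosome 14 genes.

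Comparisons that share arrays with the postnatal contrast place its values beside the embryonic level. The 50 genes had a median log2 difference of 0.06 between postnatal and embryonic control cells, so the controls of either age were alike at the middle of the list. Transformed postnatal cells had a median of -0.81 against embryonic control cells, where the other chromosome 14 genes had -0.80 and the other autosomes -0.002. Single genes differed by age, with Abcc4 at 1.28 in postnatal over embryonic control cells, and Vcl and Msra at -1.02 each. Dock9 (1.93) and Clu (1.61) were also higher in postnatal control cells, on the split arrays described above. Med4 differed less between the controls, with -0.37 in postnatal over embryonic control cells, and averaged 2133 ± 297 in transformed and 7162 ± 1150.1 in control postnatal cells, and 8905 ± 412 in transduced and 9163 ± 310 in control embryonic cells (SD, n = 5).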

How the data were processed

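The deposited intensities were linear, with 1 signal for a probe set on an array. The authors' software and scaling are not given in the sources used. After trimming 2% at each end, array means lay between 2500.01 and 2500.02, so the intensities were taken as deposited and put on the log2(signal + 16) scale. This offset understates changes of dim genes.

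Of 45101 probe sets, 64 controls were left out. The platform annotation gave a single symbol to 34945 and several to 932, which were not named. The probe set with the highest mean over the log2 values stood for its gene. Background was the 95th percentile of 27 bacterial control probe sets on each array (107 to 221). A level below it gives a bound for the fold. No 2 arrays were identical. For arrays, their number, 5 a group, limits the precision.

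A model with 4 group means was fitted over 20 arrays with limma 3.58.1 (lmFit, eBayes with intensity trend) in R 4.3.3 (data.table, version 1.17.8) and tested on simulated data. Tests were two-sided, and p-values were adjusted by Benjamini-Hochberg across 18193 genes, or across all probe sets for single probe sets. A call took an adjusted p under 0.05 and, where stated, 2-fold. Postnatal counts of listed genes go by size alone. As the labels do not call the samples separate cultures, p-values reflect the spread between these samples alone.

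The listed genes, their role lists, the marker lists and the arrays left out were chosen with earlier results of these data known. Named with signals on every array were the 4 lowest ratios, the 4 genes nearest the median, every escaping gene, the 3 with the most divergent probe sets and the embryonic genes called with 2-fold. Rap2a was added after its values were seen. Of other chromosome 14 genes, the 5 largest rises and falls were named. Chromosome order and promoters came from RefSeq on assembly GRCm38.p6. Alternatives were 2 normalizations, other offsets, the mean of all probe sets, bright genes alone, arrays left out, separate fits per age, a replicate block and other limits for escape. Same-numbered arrays of the compared groups had deviations that correlated between -0.05 and 0.03, so the numbers do not pair them.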

Additional observations from a re-analysis of the deposited data

Results flagged for a closer look

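In 18 of the 50 listed genes the postnatal and embryonic responses ran opposite ways, with every modified array above the mean of its controls at one age and below it at the other. The list was chosen because its chromosome read low in transformed postnatal cells, and 16 of the 18 were lower there and higher in embryonic cells, and 2 the reverse. The share of all genes with opposite responses was not counted, so neither the 18 nor the 9 below is a result about the list. Groups without overlap were common, with 34.8% of all genes in embryonic cells, and 15.9% lower and 16.4% higher in postnatal cells. The difference of responses, postnatal minus embryonic on the log2 scale, was not tested. In 9 genes modified and control arrays did not overlap at either age: it was -2.39 for Slc25a37, the mitochondrial iron importer (-0.96 in postnatal and 1.43 in embryonic cells), -1.92 for Uggt2 (-0.95 and 0.97), -1.92 for Chd8 (-1.51 and 0.42), -1.87 for Nufip1 (-1.26 and 0.61), -1.59 for Ppp2r2a, -1.48 for Styx, -0.86 for Ctsb, -0.71 for Psmc6 and -0.60 for Itm2b. Arrays overlapped at one age at least in the other 9, with -1.55 for Dzip1, -1.46 for Dcp1a, -1.20 for Rcbtb2, -1.13 for Nisch, -1.004 for Bap1, 0.52 for Tsc22d1 and 0.41 for Farp1, and with -2.93 for Dock9 and -2.34 for Clu, whose postnatal control arrays disagree. Dock9 was at -1.13 in postnatal cells and at 0.06 without control arrays 4 and 5. Clu was at -0.19, at 0.33 without control array 1 and at -0.84 without control arrays 4 and 5. No array stood apart from the rest of its group in the 60 gene groups examined for outliers. That check looks for a single array. It would miss a pair that differs together, as control arrays 4 and 5 did for Dock9.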

How the results depend on the processing

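The median postnatal change of -0.96 moved to -0.83 with the mean of all probe sets and to -0.88 without control arrays 4 and 5, and ranged from -0.99 to -0.89 when 1 array was left out. Genes at least 2-fold lower numbered 24, 17 without control arrays 4 and 5 and 19 to 25 with 1 array left out, escaping genes 10 to 12, and embryonic calls 7 to 8. Probe set agreement, a median range of 0.70, was 0.40 among probe sets over 500. With the replicate number as a block, 24 genes were at least 2-fold lower and 7 were called in embryonic cells, with 11 escaping, and the block changed no other call described here. Among 28 results for single genes and 525 alternatives, 513 kept direction and side of the threshold (2-fold in postnatal cells, 2-fold with the test in embryonic cells). With 1 array left out, Clu ranged from -0.59 to 0.33 and Lmo7 from -0.22 to 0.69. Signs turned for Clu without control array 1 (0.33) or 2 (0.16), for Tsc22d1 with the mean of all probe sets (-0.43) and for Lmo7 without control arrays 4 and 5 (-0.87), 4 (-0.13) or 5 (-0.22). At -0.43 Tsc22d1 no longer escaped. The embryonic rise of Dock9 was 0.95 with the mean of all probe sets, under 2-fold. Other scalings moved the median of all genes by under 0.1. Depth cannot be given for arrays, and Lmo7, near background in control cells, is the least certain.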

Other observations

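Chromosome 14 genes outside the list showed both larger falls and larger rises. Of the 304 others with a mean signal over 500, 116 were at least 2-fold lower in transformed postnatal cells and 11 at least 2-fold higher. The 5 lowest ratios were those of the secreted growth factor Bmp4, the transcript 9630013A20Rik, the endothelin receptor Ednrb, the sister chromatid cohesion enzyme Esco2 and the activity-induced transcription factor Egr3. Ednrb had 4122, 4315, 4691, 5171 and 4256 on transformed arrays, against 56178, 45689, 39639, 45003 and 41263 on control arrays, a log2 change of -3.33 ± 0.11 (adjusted p = 1.27e-15, limma). It fell in embryonic cells as well, with a change of -3.03 (adjusted p = 3.52e-15). The control arrays of Ednrb were alike, which was not so for the other 4. Bmp4 had 280, 280.2, 214, 196 and 81.2 in transformed cells, against 1442, 1020.4, 752, 20760.2 and 22945 in control cells (-4.07 ± 0.78), so that control arrays 4 and 5 were far higher than the rest. Esco2 averaged 392.2 ± 102 in transformed and 4244 ± 3170 in control cells (SD, n = 5), with 841 and 747 on control arrays 4 and 5. 9630013A20Rik (-3.71) and Egr3 (-2.72) were split between the same control arrays.

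The 5 highest ratios were those of Tmtc4, a protein O-mannosyltransferase of the endoplasmic reticulum, the glypican Gpc5, the hormone Stc1, the mitochondrial enzyme Pck2 of gluconeogenesis and Gch1, which makes the cofactor tetrahydrobiopterin. Tmtc4 had 11771, 12255, 11331, 10435 and 10927 on transformed arrays, against 1150, 839, 527, 605 and 532 on control arrays, a rise of 3.99 ± 0.15 (adjusted p = 6.65e-15). It rose by 3.66 in embryonic cells, to a mean of 10279 ± 626 after transduction, against 797 ± 71.6 in control (SD, n = 5). Pck2 rose by 2.19 ± 0.16 and Gch1 by 1.94 ± 0.22 in postnatal cells, and by 1.23 and 3.06 in embryonic cells. Gpc5 (2.62 ± 0.59) was above background on 4 of 5 control arrays. Stc1 averaged 843 ± 111 in transformed and 208 ± 178 in control cells, above background on 3 of 5 control arrays.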
